A study of Solanum lycopersicum with 14 samples.

Results

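The MADS-box genes RIN (Solyc05g012020.2), FUL1 (Solyc06g069430.2), FUL2 (Solyc03g114830.2), TAGL1 (Solyc07g055920.2), MADS1 (Solyc03g114840.2) and TM6 (Solyc02g084630.2) are 6 of the 26397 tomato genes with a read count in fruit. They were taken by locus identifier: the first 5 as genes linked to ripening, and TM6 as the MADS-box gene of the study's carotenoid list. All 6 were measured, and all passed the filter on low counts. RNA-seq was carried out on fruit of the late-maturing line HG6-61 and of the early-maturing English cultivar Ailsa Craig (AC), every 7 days between 7 and 49 days after flowering (DAF). Fruits of 5 plants of a genotype were harvested at each time, and 1 library was made for each cultivar and stage, 14 in all. No treatment or transgene was applied, and plants of both cultivars were grown under the same commercial practice. The sample records call 35 DAF mature green, 42 DAF breaker and 49 DAF ripening. Another field of the same records calls every stage up to 35 DAF mature green.

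MADS-box proteins bind DNA as dimers and higher complexes, so that one partner can have different targets with another. RIN, of the SEPALLATA clade, is required for normal ripening of tomato: rin mutant fruit stay firm and green-yellow, and RIN binds promoters of ethylene, cell wall and carotenoid genes. FUL1 (TDR4) and FUL2 are relatives of Arabidopsis FRUITFULL and bind RIN in complexes. TAGL1, the tomato relative of SHATTERPROOF, is needed both for thick, fleshy pericarp and for ripening. MADS1 is a second SEPALLATA-clade gene, known from silencing in tomato as a repressor of ripening. TM6 belongs to the APETALA3 lineage, whose members specify petals and stamens.

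Levels are RPKM, reads scaled by length and library size, as the authors deposited them, and intervals are 95% Poisson intervals of the reads. The libraries held 1461817 to 6274456 counts in HG6-61 and 1854032 to 4277327 counts in AC. Reads were not marked by molecule, so intervals and limits cover counting error only. The cultivars, 2 different genotypes, are the only replicates of a stage. In the fits with stage and cultivar as terms, p-values measure the spread left after both, not that of replicate fruit. Between the cultivars, the 7 stages stand in for replicates. For the interaction of period and cultivar, the stages of a period give the spread. The tissue was described as pericarp, yet 14 genes for seed storage proteins, oil bodies and seed regulators took 0.000621% to 1.96% of counts in HG6-61 and 0.00178% to 2.74% in AC at 7 to 28 DAF. At 42 and 49 DAF the same genes took 0.0205% to 0.037% in HG6-61 and 0.0216% to 0.023% in AC. Seed transcripts were highest at 21 and 28 DAF in both cultivars, with 13 or 14 of the 14 genes detected there. At 7 DAF in both cultivars and at 14 DAF in HG6-61 their share was below that of every 42 and 49 DAF library. Their part in the comparisons of periods was not tested.

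RIN was close to the detection limit up to 21 DAF in both cultivars and became the most abundant of 39 MADS-box genes of its type in ripening fruit. In HG6-61, RIN stood at 0.20, 0.18, 1.14, 1.02, 6.5, 566.52 and 321.58 RPKM from 7 to 49 DAF, on 1, 1, 9, 5, 12, 1542 and 860 reads. In AC, it stood at 0, 0.31, 0, 43.45, 447.24, 533.77 and 347.03 RPKM, on 0, 1, 0, 229, 2433, 1290 and 1191 reads. The 2 AC libraries without a RIN read, those of 7 and 21 DAF, allow a level of up to 1.29 RPKM at 7 DAF and 1.16 RPKM at 21 DAF, the level that 3 reads would give.

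The rise of RIN came later in HG6-61 than in AC. In HG6-61 the share of reads at 42 DAF was 88.6-fold that at 35 DAF (exact 95% interval 50.6 to 171.8). In AC, RIN at 28 DAF was at least 37.1-fold higher than at 21 DAF, where no read was seen, and 35 DAF stood a further 10.5-fold above 28 DAF (9.15 to 12.1). Once high, the cultivars differed little: HG6-61 over AC was 1.07 at 42 DAF, with an interval of 0.99 to 1.15 that includes 1, and 0.91 (0.837 to 0.999) at 49 DAF. Ordered by level over the 14 libraries, HG6-61 and AC at 42 DAF were highest and not distinguishable, AC at 35 DAF came next, and each of the 7 libraries below HG6-61 at 35 DAF could not be told from its neighbour by its counts.

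**Figure D1:**
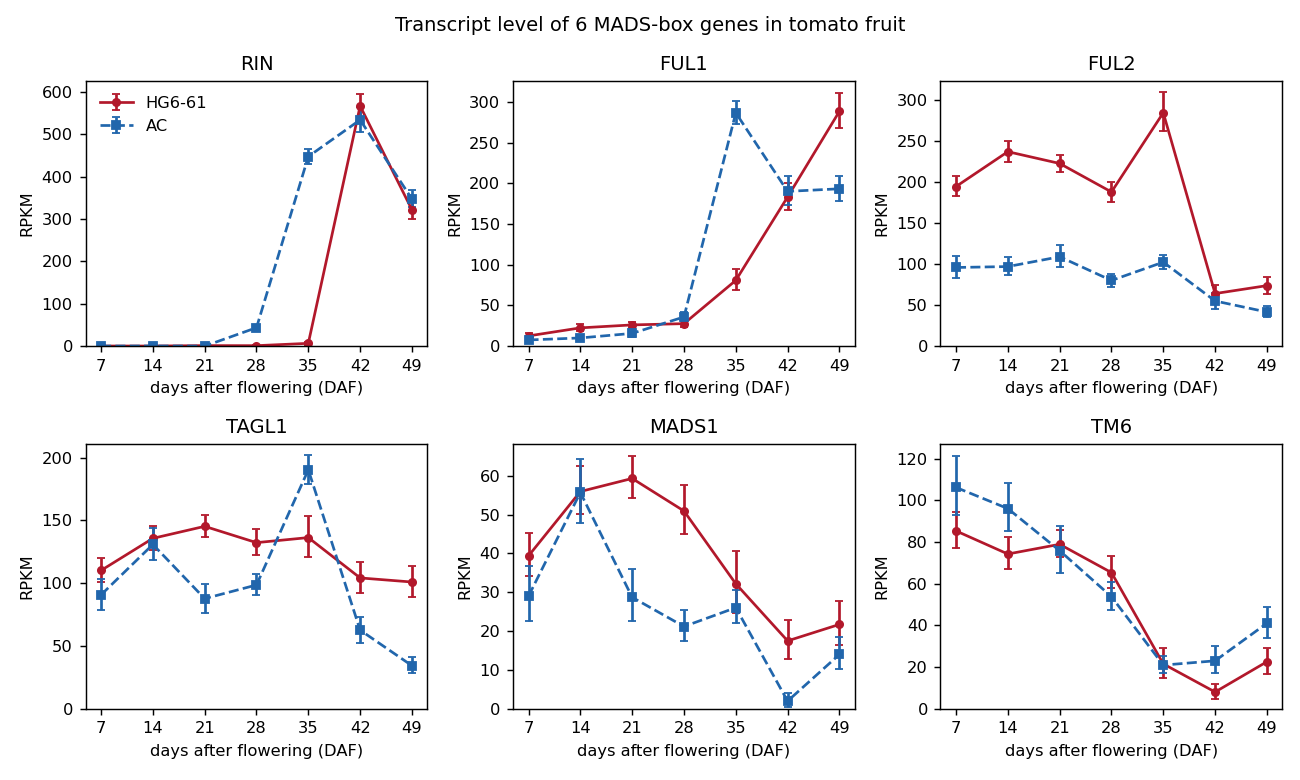
RPKM (y axis, each panel on its own scale from 0) of the 6 genes against days after flowering (x axis), HG6-61 as red circles with solid lines and AC as blue squares with dashed lines, with 1 library a point and 95% Poisson intervals as bars. RIN reaches 566.52 RPKM in HG6-61 and 533.77 RPKM in AC at 42 DAF, but at 35 DAF stands at 6.5 RPKM in HG6-61 against 447.24 RPKM in AC.

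FUL1 was present from the first stage and was highest in the stages where RIN was high. In HG6-61, FUL1 had 12.53, 22.41, 26.04, 27.60, 80.83, 183.39 and 288.71 RPKM from 7 to 49 DAF. In AC, it had 7.54, 10.02, 15.61, 35.85, 286.83, 190.24 and 193.43 RPKM. HG6-61 at 49 DAF stood 1.56-fold (1.39 to 1.75) above 42 DAF, whereas AC was highest at 35 DAF and 42 DAF stood at 0.67 (0.60 to 0.74) of that level. The highest level of each cultivar, 288.71 RPKM in HG6-61 at 49 DAF and 286.83 RPKM in AC at 35 DAF, did not differ beyond counting error (ratio 1.01).

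FUL2, the closest relative of FUL1, was high in young fruit and low in ripening fruit. HG6-61 fruit held 194.58, 237.07, 222.70, 187.94, 284.56, 64.05 and 73.73 RPKM of FUL2 from 7 to 49 DAF. AC fruit held 95.86, 96.98, 108.95, 80.02, 102.39, 55.01 and 41.54 RPKM. Every HG6-61 library up to 35 DAF was above every AC library, and the 2 late HG6-61 libraries were below all AC libraries up to 35 DAF. At 42 DAF, FUL2 in HG6-61 stood at 0.21 (0.18 to 0.25) of its 35 DAF level, and in AC at 0.54 (0.44 to 0.65).

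The 2 FRUITFULL relatives changed places. FUL2 exceeded FUL1 15.5-fold in HG6-61 and 12.7-fold in AC at 7 DAF, as ratios of RPKM. At 49 DAF, FUL1 exceeded FUL2 3.92-fold in HG6-61 and 4.66-fold in AC. The order had turned by 35 DAF in AC, where FUL1 over FUL2 was 2.80, but not in HG6-61, where it was 0.28. Reads that mapped to several places had been removed, so stretches that the paralogs share exactly would not be counted for either gene.

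TAGL1 was expressed throughout and had the flattest profile in HG6-61. Its level in HG6-61 was 110.13, 135.68, 145.24, 132.26, 136.29, 104.17 and 100.92 RPKM from 7 to 49 DAF, a spread of 1.44-fold. In AC it was 90.70, 130.82, 87.70, 98.57, 190.24, 62.62 and 34.33 RPKM, a spread of 5.54-fold. The 35 DAF library of AC was highest of all 14, 1.96-fold (1.76 to 2.18) above 28 DAF, and 42 DAF stood at 0.33 (0.27 to 0.39) of it. No such peak was seen in HG6-61, where 42 DAF stood at 0.72 (0.607 to 0.855) of 35 DAF.

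MADS1 was more abundant than RIN up to 35 DAF in HG6-61 and up to 21 DAF in AC, and less abundant afterwards. HG6-61 had 39.39, 55.95, 59.32, 50.94, 32.19, 17.49 and 21.73 RPKM of MADS1 from 7 to 49 DAF. AC had 29.04, 55.71, 28.71, 21.19, 26.04, 1.99 and 14.00 RPKM, the value at 42 DAF resting on 4 reads (interval 0.44 to 4.15 RPKM). MADS1 was higher in HG6-61 at all 7 stages, by a margin within counting error at 14 and 35 DAF. RIN over MADS1 in RPKM was 0.0051 in HG6-61 and 0 in AC at 7 DAF, and 14.8 in HG6-61 and 24.8 in AC at 49 DAF.

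TM6, the floral-organ gene, was highest in the youngest fruit. In HG6-61, TM6 stood at 85.32, 74.24, 78.90, 65.33, 21.53, 8.05 and 22.57 RPKM from 7 to 49 DAF. In AC, it stood at 106.17, 96.03, 75.84, 53.77, 20.95, 23.01 and 41.02 RPKM. At 35 DAF, HG6-61 over AC was 1.08 with an interval of 0.72 to 1.58 that includes 1. Both cultivars were higher at 49 than at 42 DAF, 2.86-fold (1.67 to 5.12) in HG6-61, where 16.5% of all genes were at least 2-fold higher, and 1.80-fold (1.29 to 2.55) in AC.

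Over both cultivars, 5 of the 6 genes changed between young and ripening fruit. The contrast set 42 and 49 DAF (4 libraries) against 7 to 28 DAF (8 libraries) in edgeR's quasi-likelihood test, with cultivar in the model and Benjamini-Hochberg adjustment over 18082 genes. RIN rose by 9.41 on the log2 scale (SE 1.01, adjusted p = 3.32e-05) and FUL1 by 3.80 (SE 0.35, adjusted p = 1.23e-05). TM6 fell by 1.61 (SE 0.27, adjusted p = 4.86e-04), MADS1 fell by 1.5 (SE 0.34, adjusted p = 0.0038) and FUL2 fell by 1.01 (SE 0.21, adjusted p = 0.0019). TAGL1 did not pass (log2 change -0.42, SE 0.24, adjusted p = 0.167). Of all genes tested, 22.5% were called higher and 30.1% lower, with a median log2 change of -0.18, so that a call in this contrast is common.

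The fitted change of RIN rests on libraries with almost no reads and ran from 8.85 without HG6-61 at 42 DAF to 11.10 without HG6-61 at 21 DAF, called in both fits. Summed reads gave its size in each cultivar: 2402 reads at 42 and 49 DAF against 16 at 7 to 28 DAF in HG6-61, a ratio of 664 (408 to 1164), and 2481 against 230 in AC, a ratio of 25.3 (22.1 to 29.1). Of the 230 early AC reads, 229 came from the 28 DAF library. FUL1 gave ratios of 10.6 (9.55 to 11.8) in HG6-61 and 9.46 (8.27 to 10.9) in AC. The MADS1 change moved to -2.49 when HG6-61 at 42 DAF was left out and to -1.05 when AC at 42 DAF was left out, and was called in both fits.

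Within each cultivar, the 2 late libraries did not overlap the 4 early ones in RPKM for any of the 6 genes. Such a separation was common: of genes with a mean of at least 10 reads, 13% lay above and 32.8% below in HG6-61, and 12.3% above and 35% below in AC. TAGL1, which did not pass the test, had 100.92 to 104.17 RPKM late against 110.13 to 145.24 early in HG6-61, and 34.33 to 62.62 late against 87.70 to 130.82 early in AC. The HG6-61 separation of TAGL1 was within counting error: 7 DAF over 42 DAF was 1.03 (0.89 to 1.19) in share of reads. After TMM scaling over both cultivars together, all 4 late libraries lay above all 8 early ones for RIN and FUL1, as for 7.73% of genes with a mean of at least 10 reads. They lay below for TM6, as for 14.5% of such genes, and overlapped for FUL2, MADS1 and TAGL1. TAGL1 passed the test with library totals as the only scaling (log2 change -0.66, adjusted p = 0.0395) and without HG6-61 at 49 DAF (adjusted p = 0.047).

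**Figure D2:**
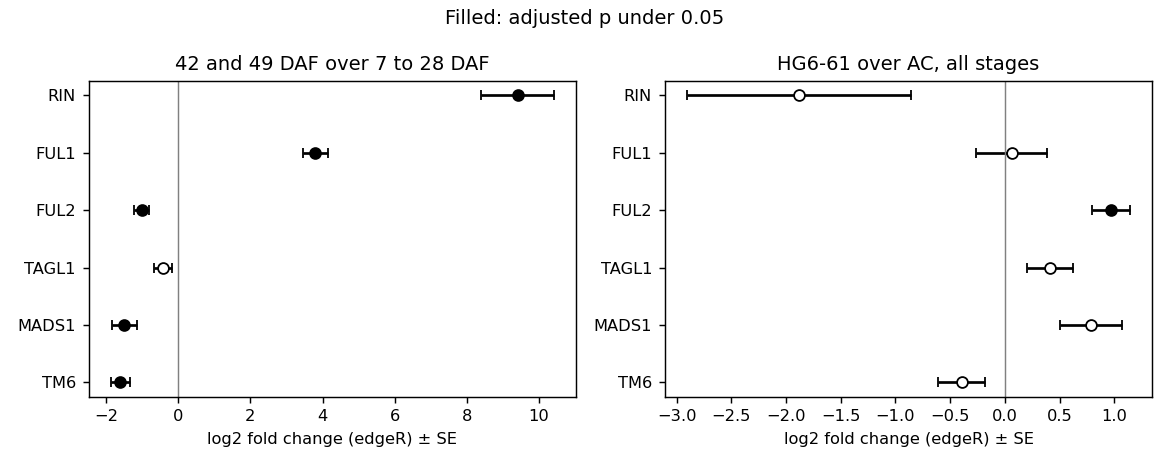
Log2 fold change from edgeR (x axis) with its SE as bars for each of the 6 genes (y axis), for 42 and 49 DAF over 7 to 28 DAF on the left and for HG6-61 over AC over all stages on the right, filled where the adjusted p is under 0.05. RIN and FUL1 lie to the right of 0 in the left panel at 9.41 and 3.80, and FUL2 is the only filled point of the right panel at 0.97.

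Stage by stage against 7 DAF, calls used an adjusted p under 0.01 and a log2 change beyond 2. At 14, 21 and 28 DAF, 0 of 6 genes were called by edgeR or by DESeq2. Of all genes, 0.293% were called higher and 0.382% lower at 14 DAF, then 2.7% and 1.63% at 21 DAF, and 5.08% and 4.76% at 28 DAF. An unadjusted p under 0.05 was reached at 14 DAF by 0, at 21 DAF by 0 and at 28 DAF by 2, RIN and FUL1. At 35 DAF, RIN (9.87, SE 2.24, adjusted p = 0.0060) and FUL1 (4.60, SE 0.68, adjusted p = 6.01e-04) rose, where 6.89% of all genes did and 8.32% fell. They were also higher at 42 DAF (7.88% of genes) and at 49 DAF (8.83% of genes, with 13.8% lower), FUL1 by 4.49 and 4.84 on the log2 scale. TM6 at 42 DAF was the only fall called, by 2.42 (SE 0.42, adjusted p = 0.0011), where 13.1% of genes fell.

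The RIN call at 35 DAF averages 2 unlike libraries. Without AC at 35 DAF, the change was 5.99 and was not called (adjusted p = 0.0727). It was also not called without either 7 DAF library: the change was 13.17 without HG6-61 (adjusted p = 0.0364) and 8.47 without AC (adjusted p = 0.0704). The RIN calls at 42 and 49 DAF were lost in the same way without either 7 DAF library, with adjusted p of 0.015 to 0.0282. The RIN changes in those fits were 15.49 at 42 DAF and 14.70 at 49 DAF without HG6-61, and 10.79 at 42 DAF and 10.002 at 49 DAF without AC. FUL1 at 35 DAF lost its call without AC at 7 DAF (4.21, adjusted p = 0.0121), and TM6 at 42 DAF without HG6-61 at 42 DAF (-1.84, adjusted p = 0.0113).

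Between the cultivars over all stages, FUL2 was the one gene of the 6 that passed. FUL2 was higher in HG6-61 at 7 of 7 stages, by 0.97 on the log2 scale (SE 0.17, adjusted p = 0.025, edgeR with stage in the model), where 0.453% of all genes were called higher and 0.68% lower. MADS1 was higher in HG6-61 at 7 of 7 stages too, as 3.8% of genes with a mean of at least 10 reads were, but did not pass (0.79, SE 0.28, adjusted p = 0.215). TAGL1 (0.41, SE 0.21), TM6 (-0.39, SE 0.21), RIN (-1.88, SE 1.02) and FUL1 (0.06, SE 0.32) did not pass either, with adjusted p of 0.371 to 0.956. The FUL2 call was lost without any one library of 7, 14, 21 or 28 DAF (adjusted p of 0.0652 to 0.0893), while its change stayed between 0.90 and 1.11 over the 14 fits that left out a library.

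At single stages, a ratio of read shares of at least 2 either way, with at least 10 reads in 1 library, was met by 14 of 42 ratios of HG6-61 over AC. These carry no replicate check. FUL2 met it at every stage up to 35 DAF, with ratios in stage order of 2.03 (1.75 to 2.36), 2.48 (2.18 to 2.81), 2.05 (1.80 to 2.33), 2.35 (2.09 to 2.65) and 2.98 (2.64 to 3.36). The share of all genes at least 2-fold higher in HG6-61 was 5.9%, 11.6%, 9.24%, 10.4% and 17.9% in the same order. MADS1 met it at 21 DAF (2.07, 1.62 to 2.67) and 28 DAF (2.402, 1.92 to 3.02). At 42 DAF, FUL2 in HG6-61 over AC was 1.17 (0.93 to 1.48), which includes 1, and at 49 DAF 1.75 (1.40 to 2.19).

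The widest gaps were those of RIN at 28 and 35 DAF. RIN in HG6-61 was 0.0235 (0.0075 to 0.0556) of the AC share at 28 DAF and 0.0144 (0.0074 to 0.0253) at 35 DAF. FUL1 in HG6-61 was 0.77 (0.61 to 0.97) of AC at 28 DAF and 0.30 (0.253 to 0.355) at 35 DAF, after standing above AC at 14 DAF (2.25, 1.51 to 3.46). At 28 DAF 10.2% of all genes were at least 2-fold lower in HG6-61, and at 35 DAF 13.2%.

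TAGL1 was above AC in HG6-61 at 6 of 7 stages, the exception being 35 DAF, where it stood at 0.77 (0.668 to 0.879). TAGL1 in HG6-61 was 1.68-fold (1.37 to 2.07) the AC share at 42 DAF and 2.89-fold (2.32 to 3.63) at 49 DAF, where 18.8% of genes were at least 2-fold higher. MADS1 was 10.7-fold (3.92 to 40.9) higher at 42 DAF, on 48 reads in HG6-61 and 4 in AC, where 16.8% of genes were. TM6 was lower, at 0.34 (0.19 to 0.59) of AC at 42 DAF, where 7.9% of genes were at least 2-fold lower, and 0.54 (0.38 to 0.75) at 49 DAF.

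**Figure D3:**
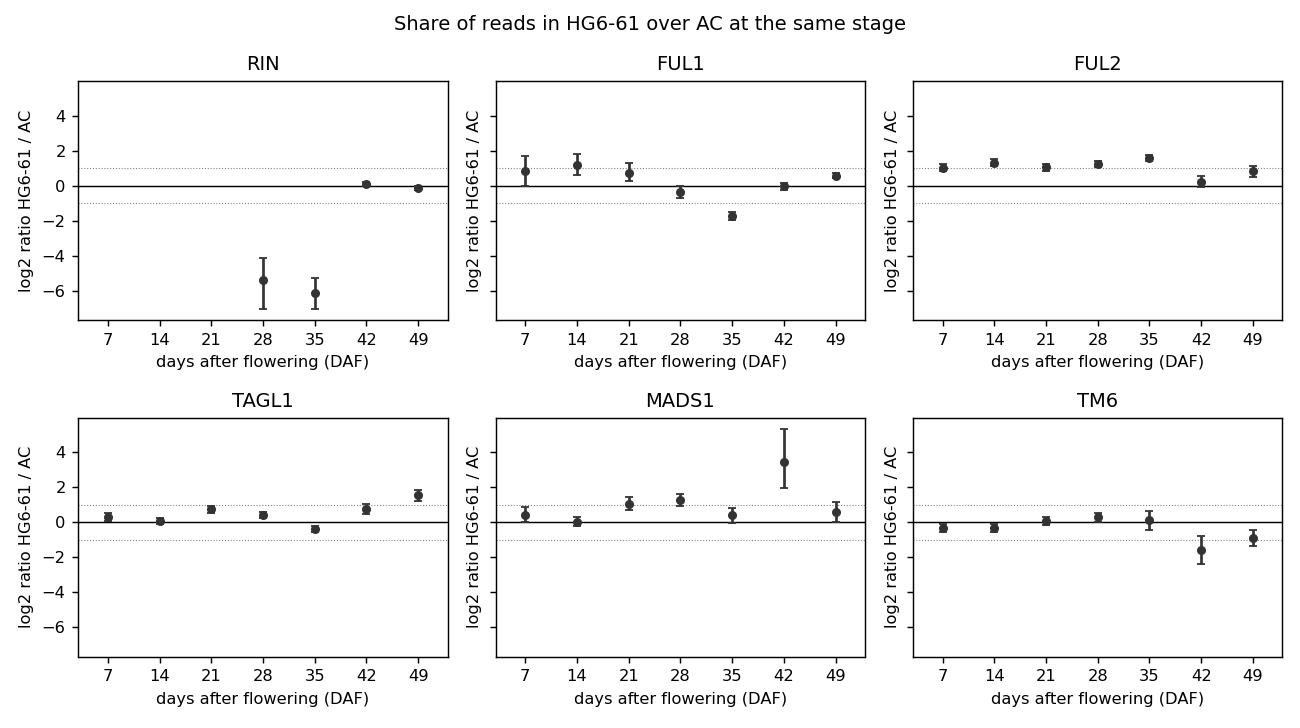
Log2 ratio of HG6-61 over AC in share of reads (y axis) against days after flowering (x axis) for each gene, with exact 95% intervals as bars, a line at 0 and dotted lines at 2-fold. Pairs with under 10 reads in both libraries (RIN at 7, 14 and 21 DAF) are not drawn, and RIN lies at -5.41 at 28 DAF and -6.12 at 35 DAF but near 0 at 42 and 49 DAF.

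The change from young to ripening fruit was not shown to differ between the cultivars for any of the 6 genes. The interaction of period and cultivar over 12 libraries called 0 of 6 in edgeR and in DESeq2, and 0 of 17903 genes in edgeR, where 1062 genes had an unadjusted p under 0.05 (DESeq2 called 21). FUL2 alone had an unadjusted p under 0.05 (0.042, adjusted p = 0.827), with a fall that was deeper in HG6-61 by 0.76 on the log2 scale (SE 0.33). RIN had an interaction of 4.05 (SE 2.46, adjusted p = 0.92), which turned to -2.29 without AC at 28 DAF.

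Between neighbouring stages, 8 of 36 ratios in HG6-61 and 8 of 36 in AC reached 2-fold. RIN, FUL1 and TM6 did so in both cultivars at 35 over 28 DAF, in the same direction. At 35 over 28 DAF in HG6-61, FUL1 was 3.18-fold (2.50 to 4.04) higher, RIN was 6.45-fold (2.12 to 23.4) higher on 12 reads against 5, and TM6 stood at 0.35 (0.243 to 0.493), where 11% of all genes were at least 2-fold higher and 28.5% lower. At 42 over 35 DAF in HG6-61, FUL1 was a further 2.14-fold (1.79 to 2.59) higher beside RIN, and FUL2 and TM6 were lower past 2-fold, where 21.2% of genes were higher and 22.2% lower.

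In AC, FUL1 was 2.28-fold (1.61 to 3.31) higher at 28 than at 21 DAF, where 10.3% of genes were, and 8.13-fold (6.97 to 9.53) higher at 35 than at 28 DAF, where 9.26% were. TM6 at 35 DAF stood at 0.40 (0.31 to 0.50) of 28 DAF, where 32.3% of genes were at least 2-fold lower. TAGL1 and MADS1 were lower past 2-fold at 42 than at 35 DAF, where 22.5% of genes were. MADS1 at 49 DAF was then 8.69-fold (3.19 to 33.2) above its 4 reads of 42 DAF, where 21.1% of genes were at least 2-fold higher.

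Setting HG6-61 at 42 DAF beside AC at 35 DAF compares the first library of each cultivar with RIN above 400 RPKM, a pair chosen after its values were seen. RIN was 1.28-fold (1.20 to 1.36) higher in HG6-61. The other 5 were lower there, at 0.64 for FUL1, 0.63 for FUL2, 0.55 for TAGL1, 0.67 for MADS1 and 0.37 for TM6, with every interval below 1. TM6 alone of the 6 passed 2-fold by library totals, as 16.7% of genes did in that direction. With TMM scaling, TAGL1 passed 2-fold too, at 0.48, and RIN was 1.11-fold higher in HG6-61.

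Summed over the 6 genes, the level per length changed in size and in make-up. The sum ran from 442.2 to 561.9 RPKM in HG6-61 at 7 to 35 DAF and reached 943.7 RPKM at 42 DAF. In AC it ran from 316.8 to 389.9 RPKM at 7 to 28 DAF and reached 1074 RPKM at 35 DAF. RIN and FUL1 together made up 2.88% of the sum in HG6-61 and 2.29% in AC at 7 DAF, 15.5% in HG6-61 and 68.4% in AC at 35 DAF, and 73.6% in HG6-61 and 80.5% in AC at 49 DAF. RIN ranked first of the 39 MADS-box genes in HG6-61 at 42 and 49 DAF and in AC at 35, 42 and 49 DAF, and FUL2 ranked first in HG6-61 at 35 DAF.

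**Figure D4:**
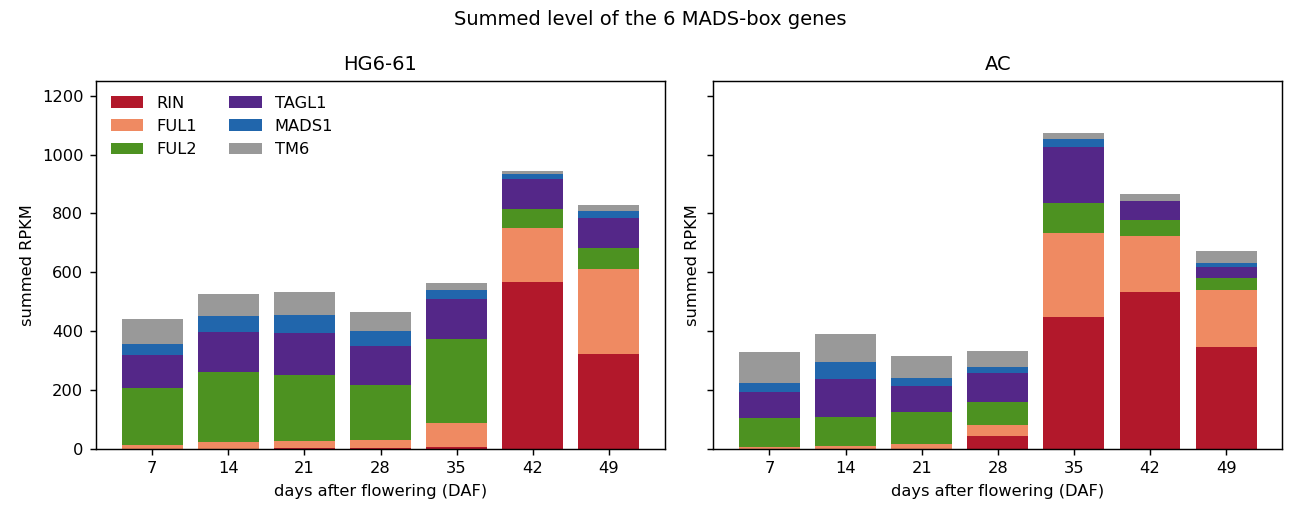
Summed RPKM of the 6 genes (y axis) at each stage in days after flowering (x axis), HG6-61 on the left and AC on the right, 1 library a bar, with each gene as a coloured segment. FUL2 (green) and TAGL1 (purple) fill most of the HG6-61 bars up to 35 DAF, and RIN (red) with FUL1 (orange) makes up 79.5% of the bar in HG6-61 and 83.5% in AC at 42 DAF.

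As a description of the 14 profiles on log2(RPKM + 1), RIN and FUL1 ran together (Pearson r = 0.94, Spearman rho = 0.86), and so they did within the 7 libraries of HG6-61 (r = 0.95) and of AC (r = 0.97). TM6 ran against both, with r = -0.84 to RIN and -0.88 to FUL1. FUL2 went with MADS1 (r = 0.71), its neighbour on chromosome 3, and with TAGL1 (r = 0.70), and TAGL1 showed little relation to TM6 (r = 0.05). All points share the developmental series and 2 genotypes, and 3.69% of 16451 genes reached r of at least 0.8 with RIN, 14.8% reached -0.8 or below, and only 0.158% reached 0.8 with TAGL1.

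The 3 genes most like each member by this r are given by identifier, with the nearest Arabidopsis symbol where the files hold one. For RIN they were Solyc08g005770.2 (r = 0.99), Solyc00g060810.2 (0.98, MLP43) and Solyc06g061170.2 (0.98, BOU), and for FUL1 they were Solyc06g068900.2 (0.97, NUDT17), Solyc09g065000.2 (0.96) and Solyc11g011990.1 (0.95, IM1, a plastid oxidase needed for carotenoid desaturation in Arabidopsis). For FUL2 they were Solyc01g103780.2 (r = 0.93), Solyc09g083030.1 (0.92, RTM1) and Solyc04g014720.2 (0.92), and for TAGL1 Solyc08g007530.2 (0.88, ATAHL1), Solyc04g049180.2 (0.87) and Solyc03g112160.2 (0.87). For MADS1 they were Solyc04g008200.2 (r = 0.97), Solyc05g006470.2 (0.96, ARPC1A) and Solyc07g063300.2 (0.93), and for TM6 Solyc01g109590.2 (0.99), Solyc01g111830.2 (0.96, SMT2, a sterol methyltransferase) and Solyc04g045600.2 (0.96). The 3 genes like MADS1 were lowest in AC at 42 DAF, at 0.12, 0.74 and 0.25 RPKM in the order given. MADS1 itself had 4 reads in that library, so these r values lean on 1 library near the floor.

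The 16 listed ripening genes that RIN is known to act on rose, each tested on its own. The list holds known ripening genes, so their rise in ripening fruit is no independent result, and no set test was run. All 16 listed genes were called higher at 42 and 49 DAF against 7 to 28 DAF, with a median log2 change of 4.84 beside -0.18 over all genes, where 22.5% of genes were called higher. They include the ethylene genes ACS2 (9.28, SE 0.80) and ACO1 (3.30, SE 0.59), the ethylene receptor NR (2.75, SE 0.48), the cell wall genes PG2a (10.03, SE 1.55), PL (4.87, SE 1.13) and EXP1 (4.85, SE 1.14), PSY1 (5.38, SE 0.74), which makes phytoene, and the regulators NOR (5.31, SE 0.55) and CNR (1.82, SE 0.27). Adjusted p values of the 16 ran from 9.83e-06 for ACS2 to 0.0375 for LOXC. Between the cultivars over all stages, 0 of 16 were called in edgeR or DESeq2. Calls were rare there: in edgeR, 0.453% of all genes were called higher and 0.68% lower. An unadjusted p under 0.05 was reached by 1 of 16, and by 2843 of all 18082 genes.

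At 28 and 35 DAF most of these genes were lower in HG6-61, as RIN was, and at 42 and 49 DAF many were higher there while RIN was not 2-fold apart. At 28 DAF, 9 of the 14 with at least 10 reads were at least 2-fold lower in HG6-61, as 10.2% of all genes were, and at 35 DAF 14 of 16 were, as 13.2% of all genes were, with a median of 24.9 RPKM in HG6-61 against 501.9 RPKM in AC. At 42 DAF, 8 of 16 were at least 2-fold higher in HG6-61 (16.8% of all genes) and 0 lower (7.9%). At 49 DAF, 8 were higher (18.8%) and 1 was lower (16.7%). The highest level was reached at 42 DAF by 11 and at 49 DAF by 5 of the 16 in HG6-61, and at 35 DAF by 13 and at 49 DAF by 3 in AC. E8 reached 1798.77 RPKM in HG6-61 at 42 DAF and 3769.66 RPKM in AC at 35 DAF. PG2a, the ripening polygalacturonase, was at 2.20 RPKM in HG6-61 and 982.10 RPKM in AC at 35 DAF. With RIN, 11 of 16 had a Pearson r of at least 0.8 over the 14 libraries, from 0.66 for CNR to 0.97 for PSY1, but 5 of 16 had a Spearman rho of at least 0.8.

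**Figure D5:**
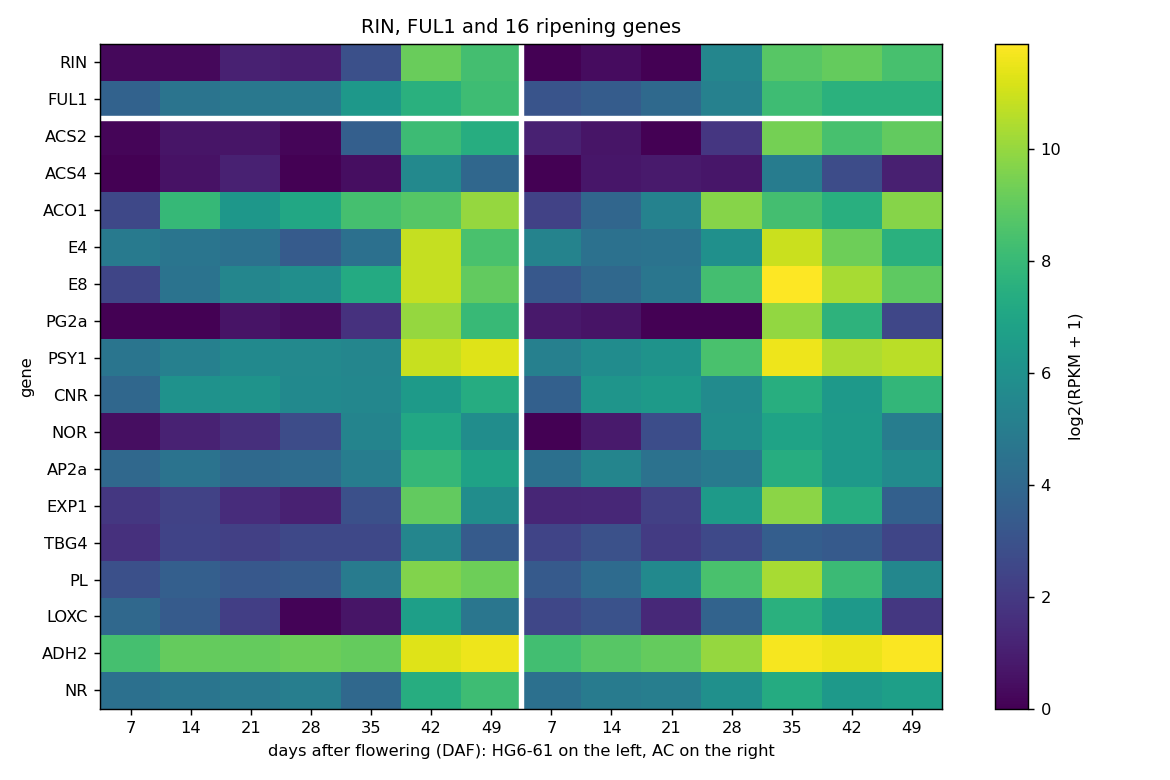
Log2(RPKM + 1) as colour for RIN and FUL1 (top) and 16 ripening genes (rows) in the 14 libraries by days after flowering (columns), HG6-61 on the left and AC on the right. Yellow and light green start at 42 DAF in HG6-61 and at 35 DAF in AC for E4, E8, PG2a, PSY1 and EXP1, whose 35 DAF levels in HG6-61 were 19.79, 152.21, 2.20, 42.16 and 6.46 RPKM.

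Among the 33 other MADS-box genes of the same type, listed by their nearest Arabidopsis gene, 13 had a mean of at least 10 reads and 14 were tested. At 42 and 49 DAF against 7 to 28 DAF, 4 of 14 were called higher, beside 22.5% of all genes, and 6 lower, beside 30.1%, with a median log2 change of -0.88, and without AC at 42 DAF 2 were called higher and 3 lower. A SEP1 relative (Solyc02g089200.2) was the most abundant in young fruit, with 293.16 RPKM in HG6-61 and 216.17 RPKM in AC at 7 DAF, and fell by 0.67 (SE 0.18, adjusted p = 0.0099). The fall lay mainly at 42 DAF: against 7 DAF, its log2 change was -1.31 at 42 DAF and -0.14 at 49 DAF, neither called. The SEP3 relative changed by -1.57 and -0.64 at the same stages, also uncalled. Between the periods, this SEP3 relative, Solyc05g015750.2, fell by 0.74 (SE 0.18), the AG relative Solyc02g071730.2, of TAGL1's clade, fell by 1.02 (SE 0.34), and the AP1 relative Solyc05g056620.1, of FUL1's clade, fell by 1.43 (SE 0.29). An ovule-identity relative, the STK relative Solyc06g064840.2, fell by 2.34 (SE 0.37, adjusted p = 3.53e-04). Another STK relative, Solyc12g087820.1, did not fall and was not called (log2 change 0.49, SE 0.40, adjusted p = 0.323). The genes that rose were the ANR1 relative Solyc04g076680.2 (1.44, SE 0.26), the AGL16 relatives Solyc04g076690.2 (0.78, SE 0.30) and Solyc04g076700.2 (0.97, SE 0.26), and the AGL15 relative Solyc01g087990.2 (0.99, SE 0.27). None of these rises held in every late library. In AC at 49 DAF, Solyc04g076690.2 stood at 41.40 RPKM, below the 50.21 to 65.14 RPKM of 7 to 28 DAF. The ANR1 relative stood at 54.15 RPKM there, against 99.67 RPKM at 28 DAF. The AGL15 relative stood at 22.17 RPKM there, against 41.21 RPKM at 28 DAF. In HG6-61 at 42 DAF, Solyc04g076700.2 stood at 21.79 RPKM, against 26.57 RPKM at 14 DAF. Between the cultivars 1 of 14 was called, the AP1 relative, higher in HG6-61 by 1.16 (SE 0.23, adjusted p = 0.0393), where 0.453% of all genes were called higher. This call was lost in every fit that left out a library.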

How the data were processed

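The authors sequenced fruit RNA on an Illumina GAIIx, mapped reads with TopHat 2.0.4 to the SL 2.40 genome allowing 2 mismatches and kept unique hits. Counts deposited by the authors are those reads per gene (26397 genes). RPKM values deposited by the authors are those reads scaled by length and library size. For the 6 genes, the length implied by counts and RPKM had medians of 1138 to 1290 bases. The listed gene lengths were 3771 to 9877 bases, so the scaling did not use them. The unit of each was checked on its values.

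All genes were fitted with edgeR 4.0.16 in R 4.3.3 with stage and cultivar as terms, after filterByExpr and TMM scaling, and tested by quasi-likelihood. Each SE is approximate: the size of the log2 change divided by the square root of the F statistic of that test. Calls needed a Benjamini-Hochberg adjusted p under 0.05, or under 0.01 with a log2 change beyond 2 for single stages. Ratios of 2 libraries have exact 95% intervals from scipy 1.17.1 and no test. Correlations used genes with a mean of at least 10 reads. The named genes are the 6 members, the 3 most alike to each, and listed genes with a mean of at least 10 reads. The 6 genes, the lists and the tests were chosen with earlier results of these data known. The alternatives were DESeq2 1.42.0, other factors, filters, thresholds and periods, a pseudocount of 0.1, and leaving out libraries. The scripts were tested on simulated data. Gene names come from the files and from locus identifiers, and no sequences or coordinates were used here.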

Additional observations from a re-analysis of the deposited data

How the results depend on the processing

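With 1 library per cultivar and stage, counts of 0 to 12 reads limit RIN before 42 DAF in HG6-61 and before 28 DAF in AC, and 4 reads limit MADS1 in AC at 42 DAF. RIN and FUL1 kept their rise and TM6, MADS1 and FUL2 their fall at 42 and 49 DAF under other factors, no filter, DESeq2, no block, 7 to 35 DAF as the early period and every library left out. A limit of adjusted p under 0.01 with a log2 change beyond 2 was not met by MADS1 (-1.5), FUL2 (-1.01) and TM6 (-1.61) there, nor by FUL2 between cultivars (0.97), through the fold limit itself. With library totals alone, TAGL1 was called lower there (-0.66), and TM6 at 35 DAF too; the cause was not tested.

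Without the replicate block (stage left out), FUL2 between cultivars was 1.08 and not called (adjusted p = 0.96), and FUL1 turned to -0.35. Leaving out cultivar as a block changed no call of the 6 genes. Over fits without one library, the cultivar change ran from 0.90 to 1.11 for FUL2 and -0.11 to 0.38 for FUL1, the TAGL1 change between periods from -0.67 to -0.095, and the interaction from -2.29 to 4.52 for RIN, -0.28 to 2.80 for MADS1 and -0.89 to 0.13 for FUL1, all 3 uncalled. The interaction of RIN changed sign only without AC at 28 DAF, the library with 229 of its 230 early AC reads. Sign changes of uncalled values were not tested for a cause.

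A ratio of at least 4 was met by 3 of 42 cultivar ratios, 3 of 36 steps in HG6-61 and 5 of 36 in AC. At 2-fold the counts were 14, 8 and 8. No share of all genes was taken at 4-fold, so the counts at that limit cannot be compared with other genes. At 2-fold such ratios were common: at 35 over 28 DAF, 11% of all genes were higher and 28.5% lower in HG6-61. In AC, 9.26% were higher and 32.3% lower at that step. With TMM scaling, TAGL1 at 35 over 28 DAF in AC (2.44) and TM6 in HG6-61 over AC at 49 DAF (0.49) also passed 2-fold. Of the 18 most alike genes, 3 were also found by Spearman rho, 0 in HG6-61 alone and 2 in AC alone.

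Genes called between cultivars were 205, against 344 without a filter, 657 by DESeq2, 25 without stage, 43 with the fold limit and 64 to 184 without a library. For 42 and 49 DAF they were 9498, against 3590 with the fold limit, and for the interaction 0, against 21 by DESeq2. Against 7 DAF, 14 DAF gave 122 (257 without a filter, 381 by DESeq2, 189 without 35 DAF, 57 without the block) and 21 DAF gave 784 (1299 by DESeq2, 509 without the block). With adjusted p under 0.05 and no fold limit, the counts were 497, 2629, 5018, 6845, 7934 and 8162 from 14 to 49 DAF, against 122, 784, 1779, 2751, 3801 and 4095. With the fold limit but without AC at 7 DAF, the counts were 11, 114, 481, 1034, 2051 and 2137, the lowest over the fits without one library.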
